A study of Danio rerio with 18 samples.

Results

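Zebrafish carry a large family of gamma M2 crystallin genes, and this account follows 6 of them, crygm2a, crygm2b, crygm2d4, crygm2d13, crygm2d17 and crygm2d20, together with the gamma N crystallin gene crygn2 and the lens membrane protein gene lim2.5. These 8 genes were taken by their current RefSeq symbols out of 2659 features with a symbol and 37105 features in all. The array level of each was read in whole embryos that were unexposed or exposed to gold nanoparticles. Most of the 8 were selected on values of these same arrays. The genes crygm2d13, crygm2d17, crygm2d20 and lim2.5 were selected on the difference between 48 and 24 hours post fertilization (hpf) in controls. The genes crygm2a, crygm2b and crygm2d4 were selected on the difference between MES-exposed and control embryos at 48 hpf, and crygm2a also on the matching difference for TMAT particles. Values of those contrasts are therefore given as a description with no test. The reason for crygn2 is not known, so any p given for it may not be independent of its selection.

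Crystallins are the soluble proteins that fill the fibre cells of the lens and give it its refractive power. Gamma M crystallins are a methionine-rich branch of the gamma family known from fish lenses, which are dense and strongly refracting. As lens fibres elongate and mature they accumulate crystallins, place channel and adhesion proteins in their membranes and lose their organelles. In mammals LIM2, the namesake of lim2.5, is an abundant membrane protein of the fibre cell.

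Each sample was RNA from a pool of 40 whole embryos of a strain that the labels do not name, and the 18 pools fell into 6 groups of 3. All embryos were dechorionated at 4 hpf, and exposure began at 6 hpf and ran to 24 or 48 hpf, at a temperature that the labels give as 37 °C. Each age had a vehicle control group (CON in the labels), a group exposed to MES particles at 50 µg/mL and a group exposed to TMAT particles at 10 µg/mL, both particles being 1.5 nm gold. MES is the anionic ligand mercaptoethanesulfonate and TMAT the cationic ligand trimethylammoniumethanethiol, so ligand and dose differed together between the particles.

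The levels below are the log2 of the deposited array intensity, on which a step of 1 is a doubling. Median intensity per array was 1809.5 to 2197.2. The intensity of random probes, designed as a measure of background, was 78.8 to 96.4 on the 12 exposed arrays, but 105.8, 168.6 and 82.8 on control arrays 1, 2 and 3 at 48 hpf and 99.5, 126.3 and 84.4 on those at 24 hpf. The first control array at 24 hpf and the second at 48 hpf correlated least with the other arrays of their age (mean r across features 0.885 and 0.881). The labels do not say that pools came from separate clutches, so the p-values measure only the spread between these pools. In RNA from whole embryos, fewer cells of a type and less RNA per cell cannot be told apart.

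Through the day from 24 to 48 hpf, crygm2d17, crygm2d20, crygm2d13 and lim2.5 rose in embryos exposed to either particle. The exposed pools of both ages had no part in that selection, so the change between the ages was tested in them. On the log2 scale crygm2d17 (NM_001099243) rose by 6.59 ± 0.31 (SE) in MES embryos and by 5.91 ± 0.31 in TMAT embryos, and lim2.5 (NM_001013522) rose by 4.57 ± 0.29 and by 4.52 ± 0.29.

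At 24 hpf the log2 level of crygm2d17 was 8.25, 7.68 and 7.46 in control arrays 1 to 3, 6.97, 8.02 and 7.68 in MES arrays and 7.93, 8.57 and 7.99 in TMAT arrays. At 48 hpf it was 13.67, 13.39 and 13.86 in controls, 14.49, 14.31 and 13.64 with MES particles and 13.98, 13.84 and 14.38 with TMAT particles. Every array at 48 hpf lay above every array at 24 hpf, and the 3 groups of either age overlapped. At 24 hpf the gene stood only 1.02 to 1.69 (group means) above the random probes of the same arrays, so the size of its rise depends on a level near background, and no fold is given. On the scale of the deposited values the 95% interval of the log2 change was 5.92 to 7.25 in MES embryos (limma adjusted p = 2.26e-09, n = 3 per age) and 5.24 to 6.57 in TMAT embryos (limma adjusted p = 6.74e-09).

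The level of crygm2d20 (NM_001082939) at 24 hpf was 11.02, 9.41 and 9.62 in controls, 9.54, 9.44 and 9.96 with MES particles and 9.88, 9.40 and 9.55 with TMAT particles. At 48 hpf it was 15.11, 14.78 and 15.44 in controls, 15.52, 15.44 and 15.29 with MES and 15.22, 15.23 and 15.43 with TMAT particles. Control array 1 was the highest of the 9 arrays at 24 hpf and control array 2 the lowest of the 9 at 48 hpf, and at both ages the exposed arrays lay within the range of the controls or near its edge. The gene rose by 5.77 ± 0.33 in MES embryos (95% interval 5.07 to 6.47, limma adjusted p = 1.31e-08, n = 3 per age). It rose by 5.69 ± 0.33 in TMAT embryos (4.99 to 6.39, limma adjusted p = 1.62e-08).

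For crygm2d13 (NM_001002408) the levels at 24 hpf were 12.09, 11.03 and 10.70 in controls, 10.62, 10.61 and 11.08 with MES particles and 10.13, 11.19 and 10.61 with TMAT particles. At 48 hpf they were 15.39, 14.77 and 15.36 in controls, 15.58, 15.58 and 15.45 with MES and 15.53, 15.40 and 15.51 with TMAT particles. The ages were again fully apart. The gene rose by 4.77 ± 0.33 in MES embryos (95% interval 4.07 to 5.46, limma adjusted p = 1.01e-07, n = 3 per age) and by 4.83 ± 0.33 in TMAT embryos (4.14 to 5.53, limma adjusted p = 8.47e-08). At 48 hpf crygm2d13 lay 0.32 to 1.20 below the brightest feature of its array and crygm2d20 lay 0.38 to 1.19 below it, so that little room was left above them on the intensity scale.

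**Figure D1:**
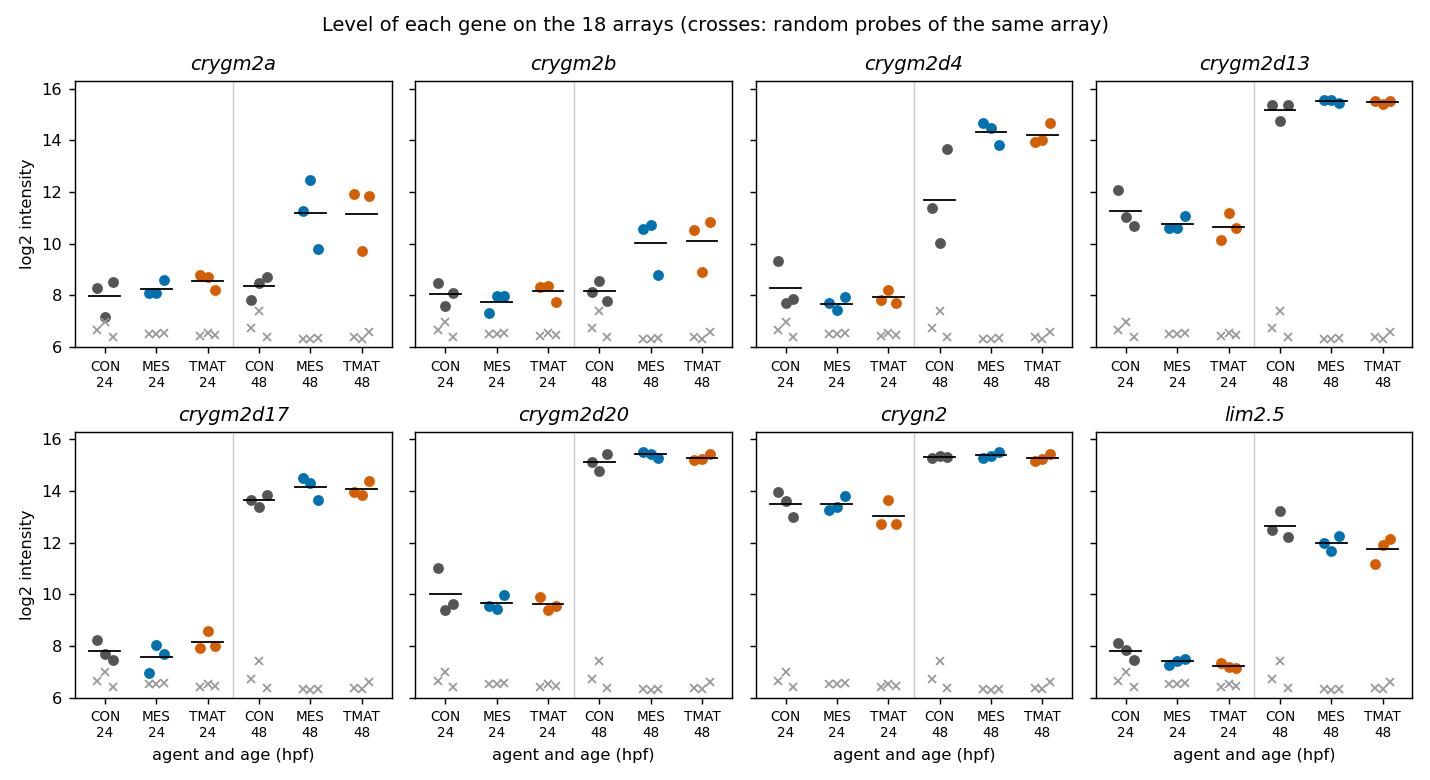
Log2 intensity of the 8 genes on the 18 arrays, by agent (CON, MES, TMAT) and age in hpf, with arrays 1 to 3 from left to right within a group. Dots are arrays, black bars are group means (n = 3) and grey crosses are the random probes of the same array. For crygm2d17 the 9 arrays at 48 hpf run from 13.39 to 14.49 and the 9 at 24 hpf from 6.97 to 8.57, while crygm2a leaves the range of its 24 hpf arrays at 48 hpf in exposed embryos alone.

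The membrane protein gene lim2.5 was close to the random probes at 24 hpf, with levels of 8.13, 7.83 and 7.46 in controls, 7.28, 7.43 and 7.49 with MES particles and 7.33, 7.19 and 7.14 with TMAT particles. At 48 hpf its levels were 12.49, 13.24 and 12.22 in controls, 11.99, 11.68 and 12.25 with MES and 11.16, 11.93 and 12.14 with TMAT particles. The ages did not overlap in any set of embryos. At 48 hpf 2 control arrays were above all 6 exposed arrays, and control array 3 was just below the highest MES array. The rise passed in MES embryos (95% interval of the log2 change 3.95 to 5.19, limma adjusted p = 4.93e-08, n = 3 per age) and in TMAT embryos (3.90 to 5.14, limma adjusted p = 5.81e-08). At 24 hpf the gene was only 0.87 (MES) and 0.75 (TMAT) above the random probes on average, so the size of the rise depends on a level near background, and no fold is given.

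All 4 of these genes passed as higher at 48 hpf in MES embryos, where 13.4% of all features were called higher and 12.6% lower at a limma adjusted p under 0.05. All 4 also passed in TMAT embryos, where 7.9% were called higher and 7.55% lower. Each call held when any single array was left out. In controls, the contrast that selected the genes, the differences were 5.85 for crygm2d17, 5.09 for crygm2d20, 4.84 for lim2.5 and 3.90 for crygm2d13, and 13.4% of features were called higher. Just outside that selection, the other measured gamma M2 gene with the next largest control difference was crygm2d5, at 3.61.

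The gamma N crystallin gene crygn2 (NM_001003428) belongs to a small branch of the family that is known in the mouse from lens and retina. On average it was already 6.57 to 6.95 above the random probes in the groups at 24 hpf. Its levels at 24 hpf were 13.96, 13.60 and 12.98 in controls, 13.26, 13.39 and 13.80 with MES particles and 12.73, 13.67 and 12.73 with TMAT particles. At 48 hpf they were 15.29, 15.36 and 15.33 in controls, 15.29, 15.37 and 15.52 with MES and 15.17, 15.24 and 15.45 with TMAT particles. The 3 groups overlapped at either age and the ages did not overlap. The difference between the ages was 1.81 in controls, 1.91 in MES embryos and 2.24 in TMAT embryos (SE 0.28 each). At 48 hpf the gene was 0.37 to 0.72 below the brightest feature of each array.

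A second pattern was that of the neighbouring genes crygm2a and crygm2b, which stayed low in control embryos at both ages and were higher at 48 hpf in embryos exposed to either particle. The level of crygm2a (NM_001018121) at 24 hpf was 8.29, 7.16 and 8.51 in controls, 8.09, 8.09 and 8.61 with MES particles and 8.77, 8.70 and 8.19 with TMAT particles. At 48 hpf it was 7.83, 8.48 and 8.72 in controls, 11.28, 12.47 and 9.79 with MES and 11.91, 9.72 and 11.83 with TMAT particles. The controls of both ages overlapped, and all 6 exposed arrays at 48 hpf lay above every other array. MES array 3 and TMAT array 2 were the lowest of the 6. The means at 48 hpf were 8.35 ± 0.46 (SD, n = 3) in controls, 11.18 ± 1.34 with MES particles and 11.15 ± 1.24 with TMAT particles. These are differences from controls of 2.84 and 2.81. Relative to the random probes of the same arrays, the 48 hpf means were 1.52 in controls, 4.87 with MES and 4.72 with TMAT particles. The size of these differences thus depends on a control level near background, and no fold is given.

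The same arrays were high and low for crygm2b (NM_001020783). At 24 hpf its levels were 8.47, 7.59 and 8.08 in controls, 7.31, 7.99 and 7.97 with MES particles and 8.34, 8.37 and 7.75 with TMAT particles. At 48 hpf they were 8.13, 8.56 and 7.79 in controls, 10.56, 10.72 and 8.77 with MES and 10.53, 8.91 and 10.85 with TMAT particles. Again the 6 exposed arrays were above the 3 controls, with MES array 3 and TMAT array 2 at 8.77 and 8.91, near the highest control at 8.56. The differences from controls were 1.86 for MES and 1.94 for TMAT particles. Above the random probes of the same arrays, the 48 hpf means of crygm2b were 1.33 in controls, 3.70 with MES and 3.67 with TMAT particles. Its control level was also near background, so again no fold is given. Across the 9 arrays at 48 hpf, with each gene centred on its own mean, crygm2a and crygm2b had a root-mean-square difference of 0.61, the smallest of any pair that includes either gene. These arrays share the libraries, and the 2 genes are close relatives. Both were also selected on MES and control arrays among these 9, so the likeness is a description.

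In the gamma M2 gene crygm2d4 (NM_001089431) both patterns were seen, with a higher level at 48 hpf in every group and a difference between exposed and control embryos at that age. At 24 hpf its levels were 9.33, 7.70 and 7.86 in controls, 7.69, 7.43 and 7.92 with MES particles and 7.83, 8.21 and 7.72 with TMAT particles. At 48 hpf they were 11.37, 10.03 and 13.65 in controls, 14.66, 14.47 and 13.81 with MES and 13.93, 14.02 and 14.68 with TMAT particles. The 6 exposed arrays were above the 3 controls, but control array 3 was close to MES array 3. The control mean of 11.69 had an SD of 1.83 (n = 3), against 14.31 ± 0.45 and 14.21 ± 0.41 in MES and TMAT embryos.

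The differences of crygm2d4 from controls at 48 hpf were 2.63 for MES and 2.53 for TMAT particles, and their size varied with the control arrays kept. Without control array 1 they were 2.47 and 2.37, without control array 2 1.80 and 1.70, and without control array 3 3.61 and 3.51. Without control arrays 1 and 2 together, and so against control array 3 alone, they were 0.66 and 0.56. Among the controls the level of crygm2d4 was lowest on the array with the highest random-probe intensity (168.6) and highest on the array with the lowest (82.8). The part of the random-probe signal in the difference was not tested. For crygm2a the controls did not follow that order. The controls of crygm2b ran the other way. They were highest (8.56) on the array with the most intense random probes and lowest (7.79) on control array 3. Against control array 3 alone the differences of crygm2a were 2.46 and 2.43, and those of crygm2b were 2.23 and 2.31.

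Of the 8 genes, crygm2a, crygm2b, crygm2d4 and crygm2d13 had all 6 exposed arrays above all 3 controls at 48 hpf, as did 5.97% of all features. None had all controls above all exposed arrays, as 11.5% of features did. For crygm2d13 the lowest exposed array (15.40) was almost level with the highest control (15.39). For MES particles 3.87% of features were called higher and 1.89% lower by limma, and for TMAT particles 0% were called in either direction. An unadjusted p under 0.05 was found for 8721 features with MES and 7519 with TMAT particles. The 2 comparisons share their controls and 3 of the genes were selected on the first of them, so nothing is read from these counts. The median difference over all features was −0.14 for MES and −0.15 for TMAT particles, so relative to the typical feature the differences of the 8 genes are that much higher.

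The remaining crystallins among the 8 had smaller differences from controls at 48 hpf. The difference was 0.36 and 0.31 for crygm2d13 with MES and TMAT particles, 0.50 and 0.43 for crygm2d17, 0.31 and 0.18 for crygm2d20, and 0.07 and −0.04 for crygn2 (SE 0.28 to 0.33). Without control arrays 1 and 2, and so against control array 3 alone, the difference of crygm2d20 was −0.02 and −0.14. At 48 hpf crygm2d13, crygm2d20 and crygn2 lay 0.32 to 1.20, 0.38 to 1.19 and 0.37 to 0.72 below the brightest feature of the array. For crygm2d17 the gap was 1.41 to 2.58. Whether the top of the scale limited any of these differences was not tested. As a distance from the random probes of the same array, the control, MES and TMAT means were 8.34, 9.22 and 9.05 for crygm2d13. They were 6.81, 7.83 and 7.64 for crygm2d17, 8.28, 9.10 and 8.87 for crygm2d20, and 8.49, 9.08 and 8.86 for crygn2. The control SDs of these distances were 0.50 to 0.85. Taking off the random probes shifts every feature of an array by the same amount. The wider gap between controls and exposed embryos on that scale is therefore not particular to these genes. It follows the more intense random probes of control arrays 1 and 2. The gene lim2.5 was on the other side of its controls, at −0.68 and −0.91 (SE 0.29). Its control levels were highest on the array with the most intense random probes, and as a distance from the random probes of the same array they were 5.82 ± 0.05 (SD, n = 3), against 5.65 ± 0.27 with MES and 5.31 ± 0.46 with TMAT particles. Against control array 3 alone the differences of lim2.5 were −0.25 and −0.48.

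**Figure D2:**
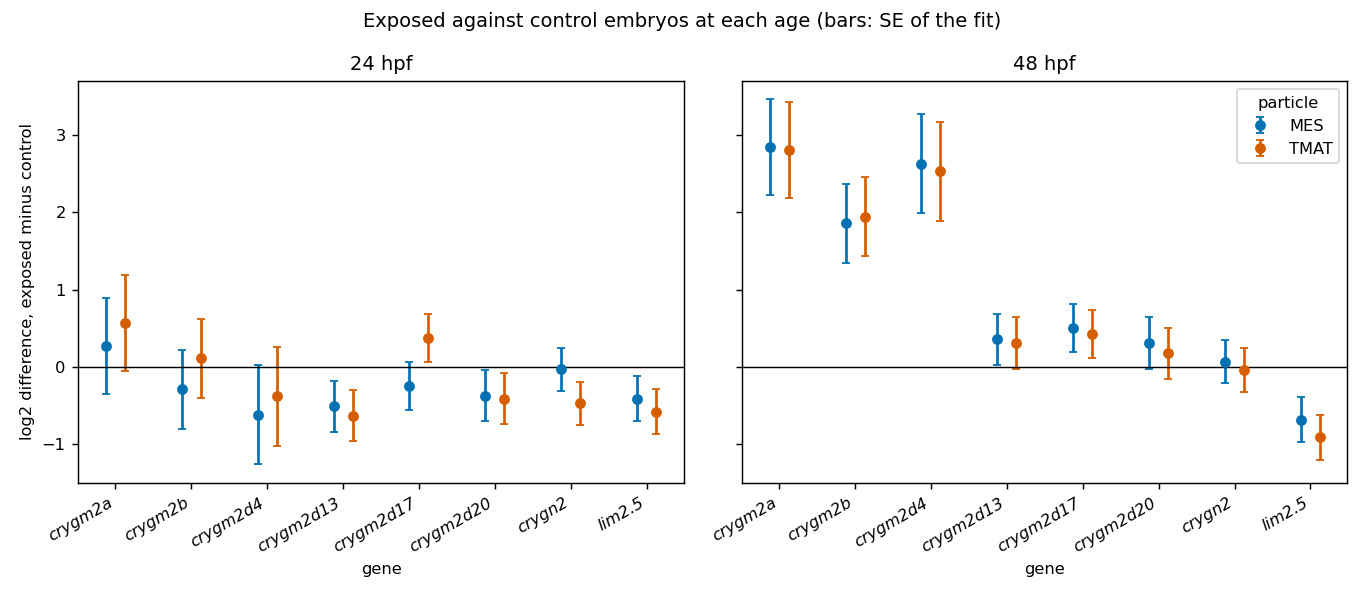
Log2 difference of exposed minus control embryos for the 8 genes at 24 hpf (left) and 48 hpf (right), for MES particles in blue and TMAT particles in orange. Points are differences of group means (n = 3) and bars the standard error of the fit. At 48 hpf crygm2a, crygm2d4 and crygm2b lie between 1.86 and 2.84, lim2.5 at −0.68 and −0.91, and at 24 hpf all 8 lie between −0.63 and 0.57.

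At 24 hpf the differences of the 8 genes from controls with MES particles ran from −0.62 (crygm2d4) to 0.27 (crygm2a), with a median of −0.33 and 7 of 8 negative, against a median of −0.08 over all features. With TMAT particles they ran from −0.63 (crygm2d13) to 0.57 (crygm2a), with a median of −0.39 and 5 of 8 negative. Control array 1 had the highest level of the 9 arrays for 6 of the 8 genes, crygm2b, crygm2d4, crygm2d13, crygm2d20, crygn2 and lim2.5. Without that array the median was −0.05 for MES (5 of 8 still negative) and 0.12 for TMAT particles (3 of 8 negative). The size of the values thus depended on that array, and for TMAT particles their mostly negative sign did too. The controls of this age took part in the selection of crygm2d13, crygm2d17, crygm2d20 and lim2.5, whose values here are a description. For crygm2a, crygm2b, crygm2d4 and crygn2 no difference was detectable, with limma adjusted p of 0.796 to 0.976 for MES and 0.654 to 0.946 for TMAT particles (n = 3 per group) and 0 of the 4 at an unadjusted p under 0.05. Their 95% intervals reached from −1.98 to 1.59 for MES and from −1.74 to 1.88 for TMAT particles. For either particle limma called 0% of features, with 1459 and 2242 at an unadjusted p under 0.05 for MES and TMAT particles.

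The particles were also set against each other, at doses of 10 µg/mL for TMAT and 50 µg/mL for MES. At 48 hpf the difference of TMAT minus MES embryos was −0.03 ± 0.62 (SE) for crygm2a, 0.08 ± 0.51 for crygm2b and −0.10 ± 0.64 for crygm2d4. These 3 genes were selected on the MES arrays of that age, so their values are a description. Among the other 5 genes it ran from −0.23 for lim2.5 (95% interval −0.85 to 0.39) to −0.05 for crygm2d13 (−0.75 to 0.64), with a limma adjusted p of 1 for each (n = 3 per group) and 0 of the 5 at an unadjusted p under 0.05. At 24 hpf the 8 differences ran from −0.44 (crygn2) to 0.61 (crygm2d17), again with a limma adjusted p of 1 for each (n = 3 per group) and 0 of the 8 at an unadjusted p under 0.05. Limma called 0% of features at 24 hpf and 0% at 48 hpf, with 37 and 590 features at an unadjusted p under 0.05. A p that misses the threshold does not show that the particles act alike.

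**Figure D3:**
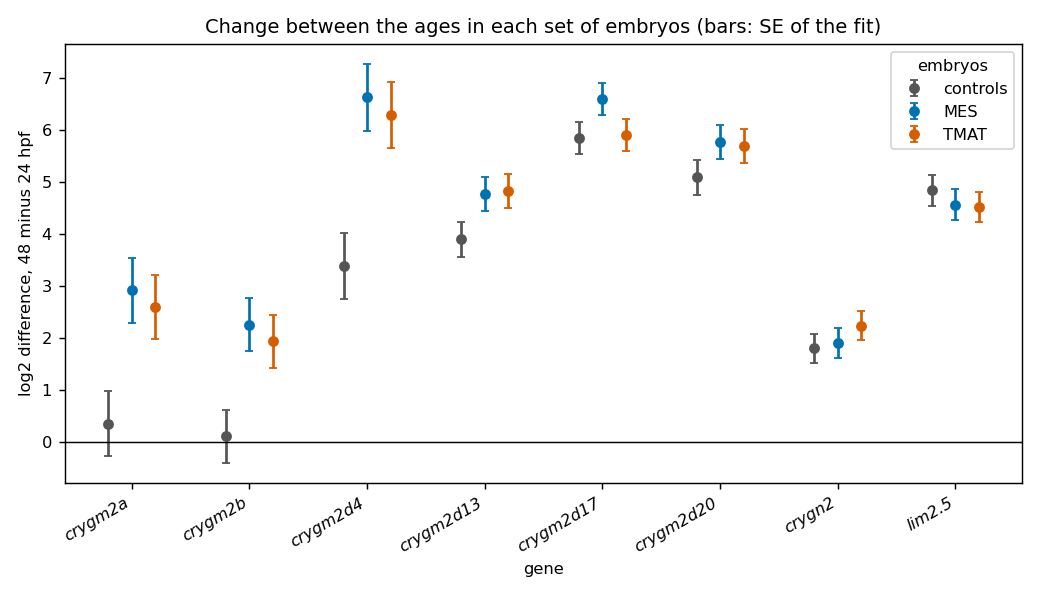
Log2 difference between 48 and 24 hpf for the 8 genes in controls (grey), MES embryos (blue) and TMAT embryos (orange). Points are differences of group means (n = 3 per age) and bars the standard error of the fit. The 3 sets lie close together for lim2.5 (4.84, 4.57 and 4.52) and crygn2, while crygm2a is at 0.36 in controls against 2.92 and 2.60 in exposed embryos.

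The differences between the ages of crygm2a, crygm2b and crygm2d4 set the patterns side by side. For crygm2a they were 0.36 in controls, 2.92 in MES and 2.60 in TMAT embryos. For crygm2b they were 0.12, 2.26 and 1.94, and for crygm2d4 3.39, 6.63 and 6.29. At 24 hpf the MES and TMAT means of crygm2d4 were 1.15 and 1.45 above the random probes. Those of crygm2b were 1.22 and 1.68, and those of crygm2a 1.73 and 2.09. The size of these changes thus depends on levels near background. The small control values of crygm2a and crygm2b have no settled sign, since some alternatives gave values below 0. The exposed values hold the arrays on which these 3 genes were selected and are a description.

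The gamma M2 genes have 26 entries in RefSeq (assembly GRCz12tu), all on 1 chromosome, in a run of 27 protein-coding genes that are all gamma crystallins. Of the 26, 10 had a feature here. In their order along the chromosome crygm2b and crygm2a are the second and the third, next to each other at one end of the run. The genes crygm2d13, crygm2d17 and crygm2d20 are at positions 5, 9 and 16, and crygm2d4 is at 19, between the unmeasured crygm2d9 and crygm2d7 at 20. The sequences of these paralogs are much alike, and how far a feature also reads its relatives was not tested.

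The 4 measured gamma M2 genes outside the selection, crygm2d2, crygm2d3, crygm2d5 and crygm2d7, rose between the ages in all 3 sets of embryos. By 48 hpf crygm2d2 had risen by 4.64 ± 0.43 in MES embryos and by 4.67 ± 0.43 in TMAT embryos (limma adjusted p = 2.09e-06 and 1.86e-06, n = 3 per age), and crygm2d5 by 4.34 and 4.26. The genes crygm2d3 and crygm2d7 rose by 3.87 and 3.27 in MES embryos and by 3.78 and 3.23 in TMAT embryos. Against controls at 48 hpf their differences were 0.39 to 0.89 with MES and 0.38 to 0.85 with TMAT particles, and 0 of 4 passed for either by limma, also at an unadjusted p under 0.05. The largest of these was that of crygm2d7 (0.89 ± 0.42, limma adjusted p = 0.217), the measured relative next below crygm2b at 1.86. Gamma M2 genes selected on the MES contrast at 48 hpf had been left out of the 4, so nothing is read from the 0 of 4. The exposed means of the 4 genes at 48 hpf were 15.58 to 15.80, and the brightest feature of an array was at 15.87 to 15.97. Little room was left above these 4 genes on the intensity scale, and whether that limited their differences was not tested.

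**Figure D4:**
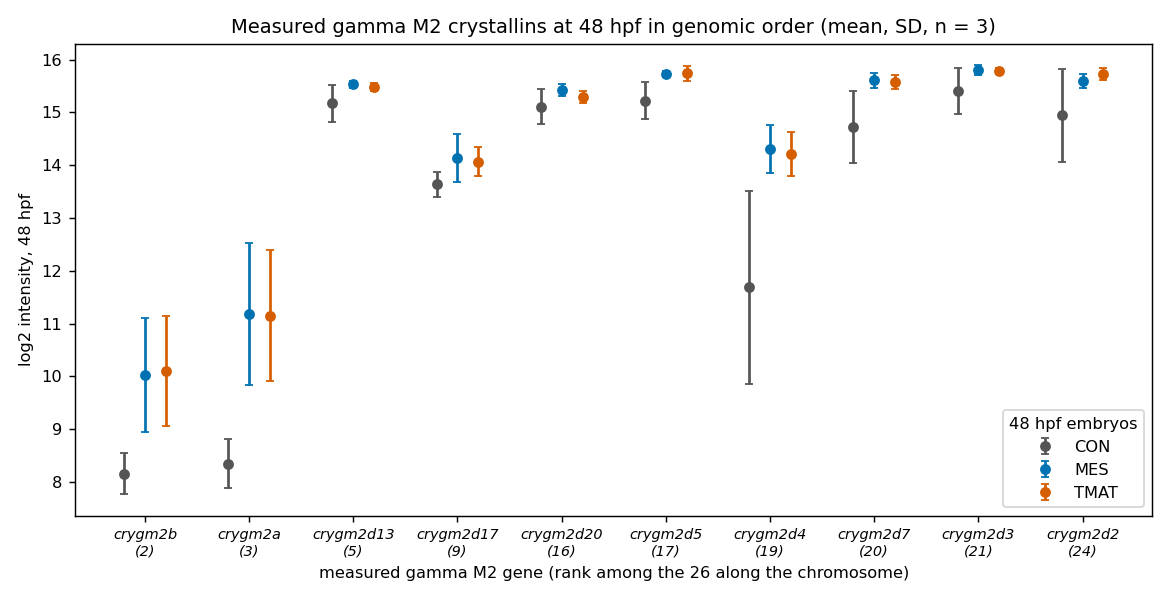
Log2 intensity at 48 hpf of the 10 measured gamma M2 genes in their order along the chromosome, with the rank among 26 in brackets. Points are means and bars SD (n = 3) for controls (grey), MES (blue) and TMAT embryos (orange), to be compared within a gene. The groups of crygm2b and crygm2a at ranks 2 and 3 are apart (8.16 against 10.02 and 10.10 for crygm2b), and the widest SD among controls is that of crygm2d4, at 1.83.

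Other genes of the lens also changed with age. Of 12 further crystallin genes, which include these 4, 10 were called higher at 48 hpf in MES embryos and 10 in TMAT embryos. Of all features 13.4% and 7.9% were called higher. All 12 differences were positive for either particle, with medians of 2.81 and 3.01 against −0.04 and −0.03 over all features. The gamma crystallin crygmx rose by 3.38 and 3.37. The small heat shock crystallin cryabb (0.64 and 0.31) and the gamma N gene crygn1 (0.36 and 0.23) did not pass. All 5 fibre membrane, cytoskeleton and maturation genes had positive differences, and 4 were called higher in MES and 3 in TMAT embryos. They included capn3a, a calpain protease known chiefly from muscle, of which rodents make a lens form (4.04 ± 0.27 and 3.97 ± 0.27, limma adjusted p = 7.87e-08 and 9.42e-08, n = 3 per age), and lim2.3, a relative of lim2.5 (2.44 and 2.53). Another relative, lim2.2, did not pass (0.86 and 0.35). Genes of the photoreceptors and retina, the other cells of the eye, moved with age too. All 7 differences were positive, and 5 of 7 were called higher in MES and 5 of 7 in TMAT embryos. Among these 5 were rs1a (4.89 and 4.80) and the arrestin gene sagb (3.14 and 3.31).

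The transcription factor gene foxe3, known for keeping the epithelial cells of the vertebrate lens dividing, was the 1 measured lens factor. It fell by 1.39 in MES embryos (limma adjusted p = 0.025) and by 1.35 in TMAT embryos (limma adjusted p = 0.0403), and was at −0.86 in controls (limma adjusted p = 0.142, n = 3 per age). The first was lost without MES array 1 or 3 at 24 hpf (limma adjusted p = 0.0502 and 0.0904) or MES array 2 at 48 hpf (0.121). The second was lost when any one of 9 arrays was left out, with limma adjusted p between 0.05 and 0.154.

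At 48 hpf 0 of these 18 further lens genes were called against controls for either particle by limma. Of all 37105 features 2138 were called for MES and 0 for TMAT particles. Lens genes selected on the MES contrast at 48 hpf had been left out of the 18, so nothing is read from these counts. Only 1 of the 18 for each particle, the apoptosis inhibitor gene birc7, had an unadjusted p under 0.05, against 8721 and 7519 of all features. The level of birc7 was lower in exposed embryos (−0.96 with MES and −1.25 with TMAT particles). The median difference of the 18 was 0.19 with MES particles (12 positive) and −0.02 with TMAT particles (9 positive). The summed intensity of the 12 further crystallins was 285367 to 413355 in controls, 418352 to 454531 in MES and 413366 to 430807 in TMAT embryos. The controls lay below the exposed arrays, with almost no gap to those of TMAT embryos. For the 4 gamma M2 genes among the 12 the median differences from controls were 0.58 with MES and 0.65 with TMAT particles. For the other 8 crystallins they were 0.07 and −0.10. Control array 2 was the lowest array of this age for each of those 4 gamma M2 genes. Several of the 12 were near the top of the intensity scale at 48 hpf, and whether that limited the sum was not tested. For the 7 genes of photoreceptors and retina the sum was 16324 to 19501 in controls, 16643 to 20125 in MES and 14551 to 20032 in TMAT embryos. These ranges overlapped, and 0 of the 7 were called against controls at 48 hpf by limma, with 1 for each particle, sagb, at an unadjusted p under 0.05. The level of sagb was also lower in exposed embryos (−0.56 with MES and −0.71 with TMAT particles). Of the surface epithelium list only tfap2c was measured, and it was at −0.42 and −0.15.

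The features closest to the members over all 18 arrays were found by the root-mean-square log2 difference between centred profiles, among 2651 other features with a symbol. Nearest to the mean profile of crygm2d13, crygm2d17, crygm2d20 and lim2.5 were the synaptotagmin gene syt5b (0.41), the fast-muscle troponin gene tnni2b.2 (0.41), the cartilage matrix gene matn3a (0.46), the retinoschisin gene rs1a (0.54) and crygm2d2 (0.63). Genes known from nerve, muscle and cartilage were nearer than any crystallin outside the members. Nearest to the mean profile of crygm2a, crygm2b and crygm2d4 were crygm2d7 (0.69), the beta crystallin cryba2b (0.89), endou2 (0.89), crygm2d3 (0.89) and csdc2a (0.91). The members' own distances to that profile were 0.62 for crygm2a, 0.85 for crygm2b and 1.37 for crygm2d4. Each of these genes is part of the mean profile, so their distances cannot be set against those of other features.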

How the data were processed

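RNA from 18 pools of embryos was hybridised to one-colour NimbleGen arrays. The authors deposited a linear intensity per feature for each array. RMA, which summarises probes after background correction and quantile normalization, is named in the submitters' processing notes, and its version and settings are not given in the sources used here. A combined table was deposited too. Of its 18 columns 2 equalled the array they were labelled with and 16 equalled another (tolerance 0.001), so the per-array tables were used, with groups from the sample labels.

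The log2 of each deposited intensity was taken with no pseudocount. Limma 3.58.1 in R 4.3.3 fitted the means of 6 groups in 1 model (residual degrees of freedom 12, prior 3.85) and gave two-sided tests of contrasts, with Benjamini-Hochberg adjustment over 37105 features and a threshold of 0.05. The 3 arrays per group limit the precision, and the median standard error of a difference was 0.327. The fit was tested on simulated data.

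The members and lists were chosen with earlier results of these data known. Named beside the 8 members were the 6 other lens genes with the largest mean absolute difference between the ages in exposed embryos and the 5 nearest features to each profile. The genes foxe3, cryabb, crygn1, lim2.2, lim2.3, birc7, sagb and tfap2c were named after their values were seen. The alternatives were centring, quantile normalization, a filter on dim features, array weights, the replicate number as a block, the combined table, each array left out, and the first control array at 24 hpf with the second at 48 hpf left out. Leaving out control arrays 1 and 2 at 48 hpf was added after seeing the data. The order of the gamma M2 genes was taken from RefSeq, no coordinates are given, and no sequences were used here.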

Additional observations from a re-analysis of the deposited data

Results flagged for a closer look

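In crygm2d4, crygm2d13 and crygm2d20 every array of either particle lay below the control mean at 24 hpf and above it at 48 hpf. The same held for MES particles alone in crygm2b, crygm2d2 and crygm2d3 and for TMAT particles alone in crygm2d5. For MES particles the difference from controls went from −0.62 to 2.63 in crygm2d4, a change of 3.25, from −0.29 to 1.86 in crygm2b (2.15), from −0.51 to 0.36 in crygm2d13 (0.87) and from −0.37 to 0.31 in crygm2d20 (0.67). For TMAT particles it went from −0.38 to 2.53 in crygm2d4 (2.90), from −0.63 to 0.31 in crygm2d13 (0.94) and from −0.41 to 0.18 in crygm2d20 (0.59). Among the relatives it went from −0.52 to 0.65 in crygm2d2 (1.17) and from −0.25 to 0.39 in crygm2d3 (0.64) for MES particles, and from −0.14 to 0.51 in crygm2d5 (0.65) for TMAT particles. The difference between the ages was not tested, and crygm2b and crygm2d4 had been selected on the values at 48 hpf. Only the 8 members and the 6 other lens genes with the largest differences between the ages were examined in this way. The share of all features with such a crossing was not counted, so nothing is read from the pattern. Control array 1 at 24 hpf was the highest array of its age for crygm2d4, crygm2d13 and crygm2d20, and control array 2 at 48 hpf the lowest of its age for the same genes.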

How the results depend on the processing

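The calls of crygm2d13, crygm2d17, crygm2d20 and lim2.5 between the ages were lost only with the combined table as labelled, where 0 of the 4 passed in MES and 0 in TMAT embryos. That table also gives 8 of its 18 columns the other age. With it the difference between the ages in MES embryos turned to −1.32 (crygm2d13), −1.41 (crygm2d17), −1.78 (crygm2d20), −2.41 (lim2.5), −0.52 (crygm2d4), −0.70 (crygn2), −1.03 (crygm2d2), −0.93 (crygm2d5), −1.03 (capn3a), −1.0 (crygm2d3), −1.28 (crygmx) and −0.48 (crygm2d7). At 48 hpf the difference from controls turned to −0.49 (crygm2a), −0.07 (crygm2b), −2.08 (crygm2d4), −1.75 (crygm2d13), −1.71 (crygm2d17), −2.07 (crygm2d20) and −1.04 (crygn2) for MES and to −0.38 (crygm2a), −0.19 (crygm2d13) and −0.16 (crygm2d20) for TMAT particles, so these descriptions rest on the per-array labels. Of 1404 alternative values of 54 differences, 32 had the other sign, 22 of them with the combined table. The other 10 were of crygm2a or crygm2b between the ages in controls, crygm2d20 at 48 hpf and crygn2 with TMAT particles.

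Counts over all features moved more. Between the ages in MES embryos 9629 features were called, against 0 with the combined table, 22275 with array weights (whose estimate stopped before convergence), 14789 without control arrays 1 (24 hpf) and 2 (48 hpf), and 5013 to 12398 with 1 array left out. In TMAT embryos 5733 were called, against 0, 16408, 8887 and 3708 to 7460. In controls 9942 were called, against 0 with the combined table, 21694 with array weights and 3028 without control arrays 1 and 2 at 48 hpf. For MES particles at 48 hpf 2138 were called, against 0 with the combined table, 24922 with array weights, 3 without control arrays 1 (24 hpf) and 2 (48 hpf), 0 without control arrays 1 and 2 at 48 hpf, and 0 to 6260 with 1 array left out (0 without control array 1, 6260 without control array 3). For TMAT particles at 48 hpf, where 0 were called, there were 20401 with array weights and 0 to 6310 with 1 array left out (6310 without control array 3). Array weights also called 316 features for TMAT particles at 24 hpf and 8 between the particles at 48 hpf. The cause was not tested.

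With the replicate number as a block, 1385 features were called for MES particles at 48 hpf, and no call of a member changed. Deviations from the group mean of arrays with the same number correlated by −0.73 to 0.61 over 45 pairs (median −0.08, 13 over 0.1). Over 90 other pairs the median was 0.06. Of 18 arrays 2 correlated best with their own number. Deviations within a group of 3 arrays depend on each other, so these values cannot settle whether the numbers mark a shared batch.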
